A study of Homo sapiens with 24 samples.

Results

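The response of the lung carcinoma line NCI-H1299 to ABBV-744 was read from 4 RNA libraries, 2 from cells given ABBV-744 at 200 nM and 2 from cells given the vehicle DMSO, all taken at 24 h. The genes described had at least 1 FPKM (fragments per kilobase of transcript, scaled to library size) in at least 2 of these 4 libraries, which held for 12498 of 30373 rows of the expression table. The rule uses the level and not the difference between treatments. At its edge, 169 members had a second-highest value of 1 to 1.1 FPKM, and 185 rows just outside it had one of 0.9 to 1 FPKM. The study also holds 2 NCI-H1299 libraries given ABBV-075 at 100 nM for 24 h, and the same 3 treatments in 3 acute myeloid leukaemia lines (Kasumi-1, MV-4-11 and SKM-1), for 24 libraries in all.

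NCI-H1299 is an established non-small cell lung cancer line that lacks p53. BET proteins such as BRD2 and BRD3 carry a pair of bromodomains, which hold acetylated lysines of histones at active genes and help RNA polymerase II to elongate. ABBV-744 binds the second bromodomain selectively, while ABBV-075 (mivebresib) binds both. Cells in which BET proteins are inhibited are known to raise HEXIM1, which holds the elongation kinase P-TEFb inactive, and several histone genes, and many blood cancer lines lower MYC.

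The libraries of a group were close to each other. The log2 values of the 2 DMSO libraries differed with an SD of 0.189 over genes and those of the 2 ABBV-744 libraries with an SD of 0.209. FPKM sums ran from 564024 to 585419 over the 4 libraries and mitochondrial transcripts took 6.65% to 7.14% of the sum. Whether the 2 libraries of each group came from separate cultures is not in the labels. If they did not, the p-values reflect no more than technical spread among these samples. The deposited values hold no counts, so the sequencing depth is unknown. Of 10 epithelial marker genes, 8 stayed under 1 FPKM in all 4 libraries, among them CDH1, EPCAM and the lung genes NKX2-1 and SFTPC, while KRT8 (153 to 158 FPKM), KRT18 (363 to 377 FPKM) and the mesenchymal filament gene VIM (1538 to 1606 FPKM) were high. All 6 leucocyte, 4 fibroblast and 3 endothelial marker genes stayed under 1 FPKM.

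ABBV-744 was compared with DMSO to ask which transcripts respond to it outside blood cancer. In the limma model of the 6 NCI-H1299 libraries, 1143 genes rose (9.15% of those tested) and 1636 fell (13.1%) at an adjusted p under 0.05. Together these calls made up 22.2% of all genes. Differences are given as log2 of FPKM + 1, which understates the change of genes near 1 FPKM, with the standard error (SE) from 2 libraries per group. Most changes were small. Among called genes the median size was 0.36, and only 35 genes rose (0.28%) and 29 fell (0.232%) at least 2-fold. At an unadjusted p under 0.05 there were 4672 genes (37.4%). The 2 groups did not overlap for 3519 genes that were higher (28.2%) and 4728 that were lower (37.8%). Rises made up 41.1% of the calls, and 52% of them when the libraries were quantile normalized. The median over all genes was -0.03. Rises and falls were called at every level of expression, in 13.6% of genes under 2 FPKM and 24.8% of genes at 100 FPKM or more, and NEAT1, BRD2 and TM4SF1 stood out among well expressed genes in the plot of level against difference. Leaving out 1 DMSO or ABBV-744 library left 469 to 749 genes called higher and 735 to 786 called lower. A model of all 24 libraries, whose shared spread includes that of the leukaemia lines, called 181 higher and 529 lower, and 619 of the 2779 calls were kept in it. The 2 SKM-1 DMSO libraries in that model differed widely for some genes, such as NPM1 (1676 and 3474 FPKM) and GAPDH (1880 and 1004 FPKM). In RNA from whole cultures, fewer cells of one kind and less RNA per cell cannot be told apart.

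**Figure D1:**
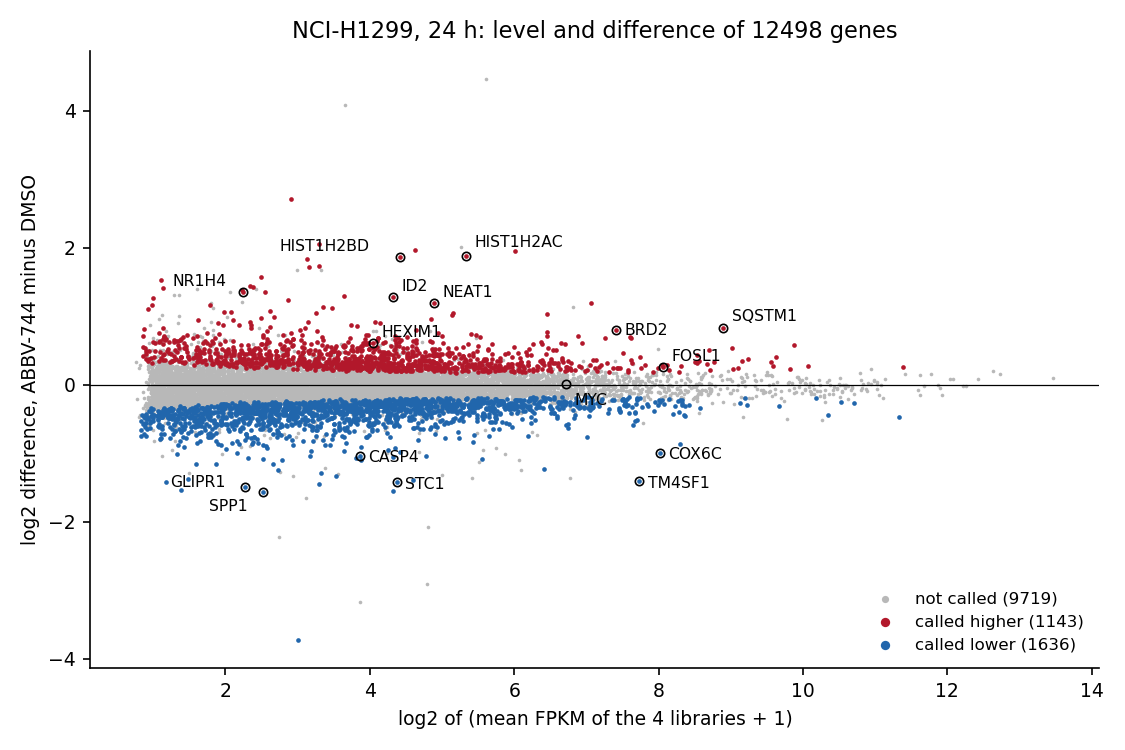
Each point is 1 of the 12498 genes, with the log2 of its mean FPKM + 1 in the 4 libraries on the x axis and the log2 difference of ABBV-744 minus DMSO on the y axis. Red and blue points are the 1143 genes called higher and the 1636 called lower, and the circled histone genes HIST1H2AC and HIST1H2BD lie at 1.88 and 1.87 while TM4SF1 lies at -1.41 and MYC at 0.02.

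Genes known to rise when BET proteins are inhibited rose here. All 11 members of that list that were expressed were called higher, with a median of 1.05 against -0.03 over all genes. Because such markers were listed with earlier results of these data known, the count describes these libraries and is no independent support. BRD2, the BET gene itself, stood at 125 and 122 FPKM with DMSO and at 211 and 218 with ABBV-744. Both treated libraries lay above both controls, and the gene rose by 0.79 ± 0.05 (limma, adjusted p = 0.00011). HEXIM1 stood at 12.4 and 11.6 FPKM with DMSO and at 18.7 and 18.9 with ABBV-744, a rise of 0.61 ± 0.06. NEAT1, a long non-coding RNA that builds nuclear paraspeckles, went from 16.7 and 17.4 FPKM to 40.5 and 40.2 and rose by 1.20 ± 0.07. The groups did not overlap for either gene. SERPINI1, which encodes the protease inhibitor neuroserpin, read 3.38 and 3.58 FPKM against 5.20 and 4.35, a rise of 0.36 ± 0.09 whose call was the least stable of the list. Its adjusted p was 0.0918 and 0.0573 without DMSO replicate 1 or 2, 0.107 without ABBV-744 replicate 1 and 0.321 in the model of 24 libraries.

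MYC was not called. It stood at 107 and 100 FPKM with DMSO and at 104 and 106 with ABBV-744, so that the groups overlapped. The difference was 0.02 ± 0.07 (95% interval -0.14 to 0.17). Of the 6 expressed genes of a list known to fall with BET inhibition, 2 fell and 1 rose. Those that fell were RRS1, a ribosome assembly factor (57.4 and 57.1 to 40.5 and 41.6 FPKM, -0.47 ± 0.07), and POLR3G, a subunit of RNA polymerase III (12.9 and 13.4 to 8.66 and 8.67 FPKM, -0.55 ± 0.07). FOSL1, an AP-1 transcription factor, rose slightly, from 247 and 239 to 293 and 288 FPKM (0.26 ± 0.05). In the model of 24 libraries no member of this list was called, with adjusted p-values of 0.0548 for RRS1, 0.51 for POLR3G and 0.457 for FOSL1. That model takes in the spread of the SKM-1 DMSO libraries, which read 5.75 and 20.8 FPKM for POLR3G. The FOSL1 call was also lost without DMSO replicate 2 (0.0886), ABBV-744 replicate 1 (0.0631) or ABBV-744 replicate 2 (0.0521). Among BET and elongation genes, 4 of 19 rose and 2 fell (2 and 0 in the model of 24 libraries), and BRD3 was not called at 0.15 ± 0.08 (8.61 and 8.83 against 9.05 and 10.6 FPKM).

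Histone genes were 13 of the 35 genes that rose at least 2-fold. They were 8 of the 12 rises named by size, which needed a symbol, at least 5 FPKM and no overlap. Of 21 expressed genes of a histone list 17 rose and 1 fell, with a median of 0.95. In the model of 24 libraries 14 rose. Over all 45 tested rows with histone names 27 rose and 3 fell. The genes of the histone clusters are normally transcribed in S phase into RNA without a poly-A tail, and the libraries were made from poly-A RNA, so the values count only polyadenylated copies. Near-identical copies may also share reads, so the split between members is uncertain. HIST1H2AC, which encodes an H2A histone, went from 15.7 and 16.6 FPKM with DMSO to 66.0 and 58.9 with ABBV-744, a rise of 1.88 ± 0.07 (limma, adjusted p = 4.8e-06). HIST1H2BD, an H2B gene, went from 8.08 and 8.30 to 32.5 and 32.6 FPKM, a rise of 1.87 ± 0.06. HIST2H2BE, another H2B gene, went from 1.6 and 1.84 to 6.52 and 6.25 FPKM, a rise of 1.44 ± 0.08. In all 3 the treated libraries stood well above both controls. HIST2H4A (1.71 ± 0.09), HIST1H3G (1.57 ± 0.08), HIST1H2BG (1.38 ± 0.18), HIST1H2AE (1.35 ± 0.08) and HIST1H2BC (1.30 ± 0.07) rose as well, so that all 4 core histone classes were among the leading genes. The 1 list member that fell, named after its values were seen, was the linker histone gene HIST1H1E, at 2.72 and 3.06 FPKM against 1.31 and 1.5 (-0.69 ± 0.13). Its call was lost without ABBV-744 replicate 1. H2AFZ, a replacement histone variant, was the most abundant of the list, at 771 and 757 FPKM with DMSO and 816 and 729 with ABBV-744, and was not called.

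The promoters of HIST1H2BD, HIST1H2AC and HIST2H2BE, 3 of the histone genes that rose at least 2-fold, are shown because they share short motifs. Each sequence is the 250 bases before the start of the gene on its own strand, 5′ to 3′, from RefSeq on GRCh38.p14, where the genes carry the newer symbols H2BC5, H2AC6 and H2BC21. Capitals mark 3 motifs, each searched on both strands. The first is the octamer ATTTGCAT. The second is the CCAAT box, named for its letters. The third is the TATA box, searched as TATAAA. HIST1H2BD lies at chr6:26157871-26158120 on the plus strand, HIST1H2AC at chr6:26123922-26124171 on the plus strand and HIST2H2BE at chr1:149886683-149886932 on the minus strand.
HIST1H2BD: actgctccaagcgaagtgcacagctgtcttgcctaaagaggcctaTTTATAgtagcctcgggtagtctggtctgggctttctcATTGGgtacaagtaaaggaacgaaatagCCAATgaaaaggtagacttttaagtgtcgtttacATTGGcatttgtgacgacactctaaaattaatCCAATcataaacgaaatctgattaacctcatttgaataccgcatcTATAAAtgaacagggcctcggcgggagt
HIST1H2AC: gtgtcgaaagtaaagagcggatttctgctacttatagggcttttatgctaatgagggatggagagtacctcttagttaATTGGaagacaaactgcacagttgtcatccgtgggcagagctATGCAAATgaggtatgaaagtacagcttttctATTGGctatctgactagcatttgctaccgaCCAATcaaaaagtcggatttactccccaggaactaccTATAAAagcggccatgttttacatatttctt
HIST2H2BE: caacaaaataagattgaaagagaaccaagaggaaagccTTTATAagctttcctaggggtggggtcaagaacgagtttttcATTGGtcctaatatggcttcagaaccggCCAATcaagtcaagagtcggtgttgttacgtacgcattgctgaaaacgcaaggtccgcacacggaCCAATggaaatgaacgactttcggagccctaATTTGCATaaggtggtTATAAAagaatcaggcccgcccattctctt
The octamer letters stand in the HIST1H2AC and HIST2H2BE windows and not in that of HIST1H2BD, and each of the 3 holds a TATA box close to the start. Among called-up genes whose names begin with HIST, which leaves out names such as H1F0 and H2AFJ, 18 matched a RefSeq promoter. Of these 10 (55.6%) held the octamer, 16 (88.9%) the CCAAT box and 12 (66.7%) the TATA box. Over all 27305 RefSeq promoters the shares were 1.66%, 33% and 11.1%, and over the 9574 tested genes with a promoter they were 1.25%, 35.8% and 4.78%. A match of letters describes the sequence and does not show a bound site. Histone genes that were not called or fell were not counted apart, so these shares do not link the motifs to the rise.

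The other leading rises were of mixed function. NR1H4, the bile acid receptor FXR, went from 1.58 and 1.78 FPKM to 5.72 and 5.93, a rise of 1.35 ± 0.07 (limma, adjusted p = 4.1e-05). ID2, an inhibitor of helix-loop-helix transcription factors, went from 11.5 and 9.77 to 28.3 and 26.1 FPKM, a rise of 1.28 ± 0.08. The treated libraries of both genes lay clear of the controls, as the rule for leading rises required. Its relatives ID1 (123 and 111 to 193 and 182 FPKM, 0.68 ± 0.07) and ID3 (86.0 and 70.7 to 124 and 116 FPKM, 0.61 ± 0.09) rose too. PIGY, a subunit of the enzyme that starts GPI anchors, read 1.64 and 4.33 FPKM against 12.6 and 16.7 (2.05 ± 0.41), but it shares a transcript with PYURF, and its call was lost in 7 of 14 alternative settings, for example at an adjusted p of 0.104 and 0.134 without ABBV-744 replicate 1 or 2. GAGE12D, a cancer-testis antigen gene, read 0.73 and 1.28 FPKM against 11.8 and 12.4. The gene belongs to a family of near-identical copies, and the values of such copies are uncertain. GAGE8, named after its values were seen, moved the other way, from 12.4 and 15.4 to 0 and 0.27 FPKM, and the summed FPKM of 13 GAGE rows went from 1112 and 1080 to 998 and 959.

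The 12 falls named by their size, among genes with a symbol, at least 5 FPKM and no overlap, ran from -1.15 to -1.57. SPP1, the secreted phosphoprotein osteopontin, went from 7.79 and 7.33 FPKM with DMSO to 1.71 and 2.07 with ABBV-744, a fall in both treated libraries (-1.57 ± 0.10, limma, adjusted p = 9.9e-05). TM4SF1, a membrane protein with 4 membrane-spanning segments, was the most abundant of these genes, at 315 and 302 against 119 and 113 FPKM (-1.41 ± 0.06). STC1, the glycoprotein hormone stanniocalcin, stood at 29.4 and 29.0 against 9.92 and 10.6 FPKM (-1.43 ± 0.08). For each of these genes both treated libraries lay far below both controls. IGFBP3, which binds insulin-like growth factors, stood at 15.1 and 15.8 against 6.01 and 5.14 FPKM (-1.33 ± 0.09). THBS1, the matrix protein thrombospondin, stood at 12.9 and 13.5 against 4.55 and 5.06 FPKM (-1.29 ± 0.08). S100A2, a calcium-binding protein of epithelia, stood at 14.5 and 12.1 against 3.99 and 4.5 FPKM (-1.44 ± 0.13). The groups of these 3 genes lay far apart compared with the gap between replicates. GLIPR1 (6.21 and 6.03 to 1.19 and 1.94 FPKM, -1.49 ± 0.16), TMEM158 (33.1 and 34.9 to 11.2 and 13.7 FPKM, -1.39 ± 0.10), TPD52L1 (-1.25 ± 0.09) and the antiviral synthetase gene OAS3 (7.82 and 7.53 to 2.80 and 3.0 FPKM, -1.15 ± 0.08) completed the stable members.

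A pair of leading falls was less firm. BAG1, a co-chaperone, stood at 34.7 and 23.4 against 9.02 and 9.07 FPKM (-1.55 ± 0.20), and its adjusted p was 0.0521 without ABBV-744 replicate 1 and 0.0509 without ABBV-744 replicate 2. ZNF706 stood at 137 and 99.7 against 55 and 43.8 FPKM (-1.23 ± 0.19), with an adjusted p of 0.0561 without ABBV-744 replicate 2 and 0.144 in the model of 24 libraries. In both genes the DMSO libraries differed more than in the other leading falls. Their groups did not overlap, but the rule that named the leading falls required this.

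**Figure D2:**
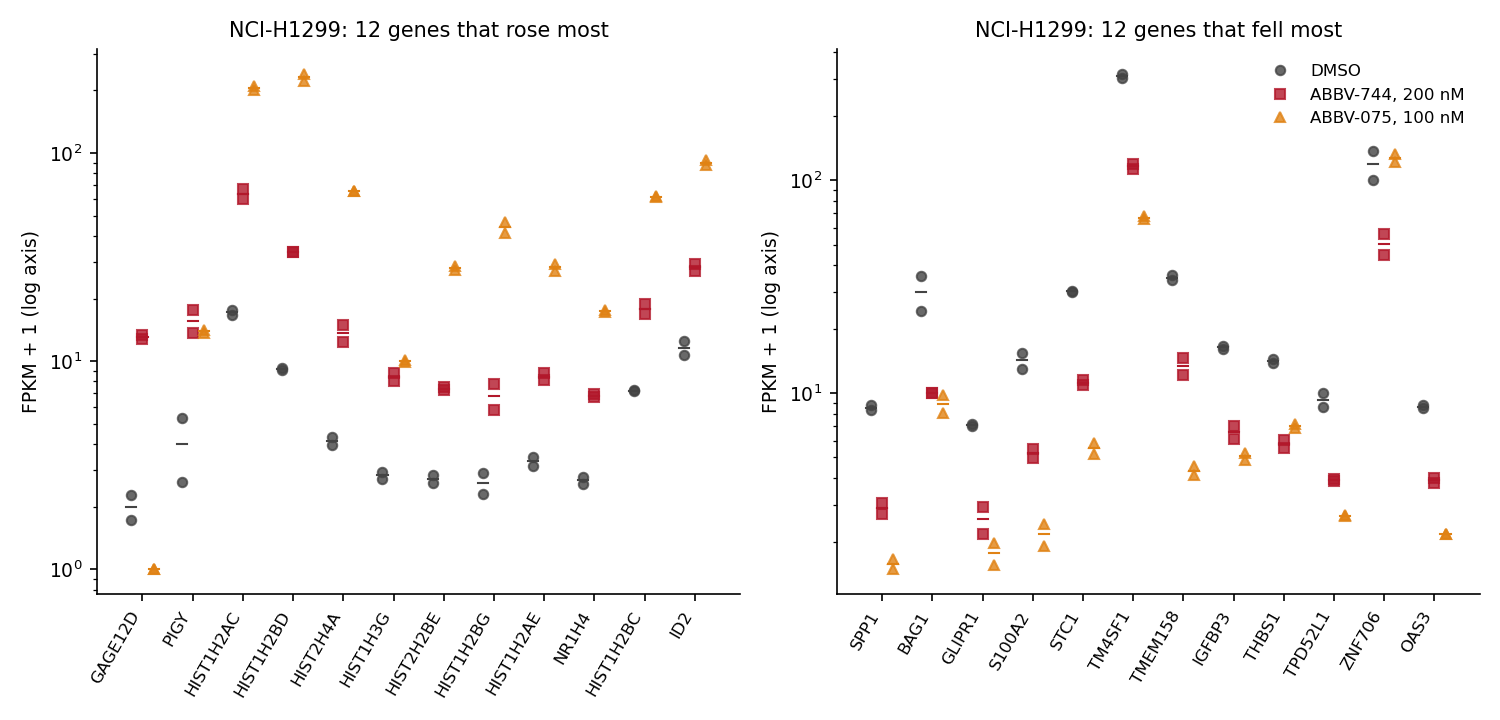
FPKM + 1 (log axis) of each NCI-H1299 library for the 12 named genes that rose most and the 12 that fell most with ABBV-744, with DMSO as grey circles, ABBV-744 as red squares, ABBV-075 as orange triangles and a bar at each mean. No red square overlaps the grey circles of the same gene, because the rule that named these genes required it. The ABBV-075 libraries of ZNF706 (121 and 132 FPKM) stay at the level of DMSO. Those of GAGE12D lie at or near 0 FPKM, below DMSO (0.73 and 1.28 FPKM).

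Lists of matrix, adhesion and signalling genes moved in part. Of 16 extracellular matrix genes 6 fell and none rose (median -0.16), 3 in the model of 24 libraries and 1 to 5 when an ABBV-744 or DMSO library was left out. Besides THBS1 these included the membrane protease MMP14 (14.4 and 15.2 to 9.34 and 9.88 FPKM, -0.58 ± 0.10) and the collagen COL12A1 (-0.53 ± 0.10). The call of MMP14 was lost without ABBV-744 replicate 1 (adjusted p = 0.0573) and in the model of 24 libraries (0.138), and that of COL12A1 without ABBV-744 replicate 1 (0.0536). Of 12 integrins and adhesion receptors 2 fell and 1 rose (1 and 0 in the model of 24 libraries). ITGA6, an alpha chain of laminin receptors, fell from 63.7 and 69.4 to 43.1 and 47.5 FPKM (-0.54 ± 0.07), while ITGB1, its most abundant partner chain in the list, was not called at 0.14 ± 0.05.

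Targets of the Hippo pathway effectors YAP and TEAD went both ways. Of 19 tested 5 rose and 3 fell (median 0.03), with 3 and 1 left when any DMSO or ABBV-744 library was left out. CTGF, a secreted matricellular protein, rose from 60.5 and 59.9 to 91.3 and 90.9 FPKM (0.59 ± 0.05, limma, adjusted p = 0.00034), and the junction protein gene AMOTL2 from 73.7 and 70.9 to 93.2 and 92.9 FPKM (0.36 ± 0.05). Replicates of both genes agreed closely. WWC1, an upstream member of the pathway, fell from 26.9 and 28.5 to 17.8 and 20.9 FPKM (-0.50 ± 0.09), a call lost without ABBV-744 replicate 1 (0.0623) and in the model of 24 libraries (0.107). Of 15 TGF-beta response genes 5 rose, ID1, ID2 and ID3 among them, and 4 fell (median -0.10). TGFBR2, a receptor of the pathway, fell from 13.8 and 12.9 to 7.63 and 9.32 FPKM (-0.60 ± 0.09).

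The promoters of TM4SF1 and THBS1 are shown because they hold letters that TEAD factors are known to bind. Both are the 250 bases before the gene start, 5′ to 3′ on the strand of the gene, from RefSeq on GRCh38.p14, at chr3:149377650-149377899 on the minus strand for TM4SF1 and chr15:39580829-39581078 on the plus strand for THBS1. Capitals mark GGAATG on either strand. The AP-1 letters, TGANTCA, and the TATA box were searched in the same way and have no match in them.
TM4SF1: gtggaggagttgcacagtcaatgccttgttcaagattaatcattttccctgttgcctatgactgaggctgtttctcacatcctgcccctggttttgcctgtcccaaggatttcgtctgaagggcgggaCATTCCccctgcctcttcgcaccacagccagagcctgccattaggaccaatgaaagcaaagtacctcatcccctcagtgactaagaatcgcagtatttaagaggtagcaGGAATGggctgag
THBS1: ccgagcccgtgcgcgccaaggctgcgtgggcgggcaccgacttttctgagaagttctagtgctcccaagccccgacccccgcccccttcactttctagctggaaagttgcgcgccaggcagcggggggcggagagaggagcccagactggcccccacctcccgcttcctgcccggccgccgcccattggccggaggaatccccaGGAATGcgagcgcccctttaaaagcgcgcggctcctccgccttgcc
Of the 19 genes called at least 2-fold lower with a promoter in RefSeq, 5 (26.3%) held the TEAD letters and 4 (21.1%) the AP-1 letters, against 11.9% and 6.6% of all 27305 promoters and 9.08% and 3.34% of the tested ones. Among all called falls the shares were 9.06% and 5.29%, the first close to that of the tested promoters. A match of letters does not show a bound site, and a part of these factors in the falls was not tested. The 250 bases of IGFBP3 held no match to the TEAD letters, the AP-1 letters or the TATA box, which says nothing of which factors act on it.

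Most expressed genes of a list of cytokine and NF-kB genes fell, while most interferon and antigen presentation genes were not called. The cytokine list mixes cytokines with NF-kB subunits and regulators, and only 9 of its 23 genes passed the filter on level. Of 9 expressed cytokine and NF-kB genes 8 fell and none rose, with a median of -0.40, the lowest of the lists with 5 or more members. The model of 24 libraries called 4 of them, and 3 to 5 were left without DMSO replicate 1 or either ABBV-744 library. LIF, a cytokine of the interleukin-6 family, stood at 3.27 and 3.03 FPKM with DMSO and at 0.80 and 0.91 with ABBV-744 (-1.16 ± 0.10, limma, adjusted p = 0.00035). NFKB1, a subunit of the transcription factor, stood at 20.6 and 22.4 against 15.3 and 15.5 FPKM (-0.45 ± 0.07). The treated libraries were below the controls for both genes. NFKBIA, the inhibitor of NF-kB and an early target of it, stayed at 16.8 and 16.7 against 16.5 and 16.4 FPKM and was not called (-0.02 ± 0.06). Of 14 interferon response genes 3 rose and 3 fell (0 and 1 in the model of 24 libraries), with OAS3 the furthest down. Of 12 MHC class I presentation genes 4 fell and 1 rose (0 and 0 in the model of 24 libraries), and 2 fell without DMSO replicate 1 or ABBV-744 replicate 1. The immunoproteasome gene PSMB8 stood at 21.7 and 23.4 against 14.1 and 12.7 FPKM (-0.71 ± 0.08) and the peptide transporter TAP2 at 34.1 and 33.5 against 21.7 and 21.9 FPKM (-0.61 ± 0.07). B2M, the light chain of class I molecules, was not called at 0.11 ± 0.06. In the model of 24 libraries the adjusted p was 0.062 for PSMB8 and 0.18 for TAP2.

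Growth genes were a little lower, in calls that, like those over all genes, were often lost when a single library was left out. The model of 24 libraries kept 22.3% of the calls over all genes. Over all genes 13.1% fell and 9.15% rose. Among 32 targets of MYC and genes of the nucleolus 13 were called lower (40.6%) and 0 higher (median -0.19). Of 34 DNA replication genes 13 fell (38.2%) and 1 rose (median -0.17), and of 35 mitotic genes 15 fell (42.9%) and none rose (median -0.16). In the model of 24 libraries no gene of these lists was called, and with 1 DMSO or ABBV-744 library left out 5 to 7, 1 to 5 and 2 to 6 genes fell. NME1, a nucleoside diphosphate kinase, stood at 383 and 366 against 273 and 276 FPKM (-0.44 ± 0.05, limma, adjusted p = 0.0018 and 0.13 in the model of 24 libraries). RFC4, a subunit of the clamp loader, stood at 55.6 and 58.1 against 46.1 and 42.4 FPKM (-0.36 ± 0.07), and its adjusted p was 0.0549 without ABBV-744 replicate 2. AURKA, a mitotic kinase, stood at 111 in both controls against 91.3 and 86.0 FPKM (-0.32 ± 0.07), with an adjusted p of 0.0501, 0.0523 and 0.0912 without DMSO replicate 2, ABBV-744 replicate 1 or ABBV-744 replicate 2. All these groups were separate, with gaps that were small next to those of the leading genes. The helicase subunit MCM7 (422 and 403 against 393 and 384 FPKM), the nucleolar protein NPM1 (-0.15 ± 0.06) and the separase inhibitor PTTG1 (-0.15 ± 0.08) were not called.

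CDKN1A, the cell cycle inhibitor p21, was the 1 gene of 6 CDK inhibitors that rose. It stood at 24.0 and 25.1 FPKM with DMSO and at 37.6 and 38.4 with ABBV-744, with no overlap, a rise of 0.61 ± 0.07 (limma, adjusted p = 0.0012 and 0.0695 in the model of 24 libraries). Of 20 p53 target genes, in a line without p53, 4 rose and 4 fell (0 and 1 in the model of 24 libraries). Without DMSO replicate 1 or ABBV-744 replicate 2 the rises numbered 2, and without DMSO replicate 2 or ABBV-744 replicate 1 the falls numbered 2 and 1. TP53INP1, a stress protein, rose from 3.57 and 3.33 to 4.84 and 5.35 FPKM (0.45 ± 0.08), SESN1 from 4.31 and 4.20 to 6.32 and 5.90 FPKM (0.44 ± 0.07), and AEN, an apoptotic nuclease, fell from 17.8 and 18.0 to 14 and 12.7 FPKM (-0.40 ± 0.07). These 3 calls were lost in the model of 24 libraries, at adjusted p-values of 0.124, 0.0999 and 0.22. CDK6, a G1 kinase, stood at 18.4 and 20.6 against 13.8 and 15.7 FPKM (-0.38 ± 0.09), a call lost without DMSO replicate 2 (0.106), without ABBV-744 replicate 1 (0.12) and in the model of 24 libraries (0.375). CDK4 was not called at 0.06 ± 0.07.

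No anti-apoptotic member of the BCL2 family was called among 4 tested. BCL2 was at the edge of expression, at 1.49 and 1.12 against 0.90 and 0.70 FPKM (-0.36 ± 0.12, limma, adjusted p = 0.068). BCL2L1 read 64.0 and 62.4 against 60 and 60.7 FPKM (-0.07 ± 0.06), and MCL1 read 113 and 118 against 103 in both treated libraries (-0.17 ± 0.05). The groups did not overlap for these genes, and the differences stayed above the adjusted threshold. Among 11 death-promoting relatives 1 rose and 4 fell, and 0 rose and 0 or 1 fell without DMSO replicate 1 or either ABBV-744 library. BCL2L11, the BH3-only protein BIM, read 2.66 and 2.73 against 2.75 and 2.99 FPKM and was not called.

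Of 16 feedback genes of the MAPK pathway 4 fell and none rose (median -0.18), 1 in the model of 24 libraries and 2 without ABBV-744 replicate 1. The transcription factor ETV4 stood at 13.3 and 12.4 against 7.53 and 8.05 FPKM (-0.65 ± 0.08, limma, adjusted p = 0.0014), and the phosphatase DUSP10 at 3.20 and 3.28 against 1.92 and 1.96 FPKM (-0.53 ± 0.08). Both genes were lower in each treated library, and the call of ETV4 was lost in the model of 24 libraries (0.186). Among 17 immediate early and AP-1 genes 2 rose and 3 fell (0 and 1 in the model of 24 libraries, and also without ABBV-744 replicate 1 or 2). FOSL2 fell from 15.0 and 16.4 to 9.96 and 11.6 FPKM (-0.50 ± 0.08), the opposite direction to its relative FOSL1. Growth factor genes included falls of TGFA, an EGF receptor ligand (7.28 and 7.85 to 4.49 and 4.95 FPKM, -0.58 ± 0.08), and of NRG1, a ligand of ERBB receptors (7.96 and 8.52 to 5.42 and 5.92 FPKM, -0.47 ± 0.08), among 4 of 15 that fell (2 without DMSO replicate 2 or either ABBV-744 library).

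Oxidant defence genes were the list with most rises after histones and BET markers. Of 15 targets of NRF2, the regulator of that defence, 8 rose and 2 fell (median 0.27), and 4 and 1 in the model of 24 libraries. The quinone reductase NQO1 went from 87.7 and 89.1 FPKM to 151 and 141 (0.71 ± 0.06, limma, adjusted p = 0.00022), and the thioredoxin reductase TXNRD1 from 96.1 and 96.2 to 145 and 150 (0.61 ± 0.05). SQSTM1, the autophagy receptor p62, went from 352 and 331 to 601 and 619 FPKM (0.83 ± 0.06). Both treated libraries were far above the controls in all 3. The cystine transporter SLC7A11, which both NRF2 and ATF4 are known to drive, was low and fell from 1.6 and 1.71 to 0.62 and 0.77 FPKM (-0.65 ± 0.11). Of 22 lysosome and autophagy genes 6 rose and 2 fell (1 and 1 in the model of 24 libraries, and 3 rises without ABBV-744 replicate 2), with the sialidase NEU1 at 35.4 and 32.7 against 55.2 and 56.2 FPKM (0.69 ± 0.07 and an adjusted p of 0.0915 in that model).

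Stress and biosynthetic lists held more falls than rises, as did all genes (13.1% fell and 9.15% rose). In the ATF4, unfolded protein and cholesterol lists 35%, 38.9% and 30.4% fell, while 0%, 11.1% and 17.4% rose. Of 20 targets of ATF4, the factor of the amino acid response, 7 fell and none rose (median -0.18, 3 in the model of 24 libraries). The pseudokinase gene TRIB3 stood at 9.27 and 8.59 against 4.13 and 4.69 FPKM (-0.88 ± 0.11, limma, adjusted p = 0.0016) and the hormone STC2 at 4.36 and 3.52 against 1.90 and 1.49 FPKM (-0.87 ± 0.12). The groups were apart in both. Of 18 unfolded protein and heat shock genes 7 fell and 2 rose, none of them called in the model of 24 libraries and 2 or 3 falls left without either DMSO library or ABBV-744 replicate 1. Cholesterol synthesis genes split, with 4 of 23 up and 7 down (none in the model of 24 libraries). TM7SF2, a sterol reductase, rose from 12.5 and 10.6 to 17.4 and 18.7 FPKM (0.60 ± 0.09), while HMGCS1, which makes HMG-CoA, fell from 52.9 and 53.8 to 39.2 and 38.3 FPKM (-0.45 ± 0.05). FDFT1, the squalene synthase, was not called at 0.03 ± 0.05, nor was the desaturase SCD, at 577 and 569 against 593 and 642 FPKM. Cholesterol falls numbered 1 or 2 when any DMSO or ABBV-744 library was left out.

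HOX genes, which set position along the body axis, were lower as a list. Of 16 tested, cofactors included, 9 fell (56.2%, against 13.1% of all genes) and none rose (median -0.31). The model of 24 libraries called 4, and fewer than 9 were left when any DMSO or ABBV-744 library was left out. Over all 23 tested rows with HOX names 10 fell and none rose (median -0.28). PBX3, a HOX cofactor, was the best expressed of the falls named, at 56.5 and 56.6 against 41.8 and 41.5 FPKM (-0.43 ± 0.05, limma, adjusted p = 0.0017 and 0.146 in the model of 24 libraries). HOXA4 read 2.34 and 2.55 against 0.97 and 1.27 FPKM (-0.70 ± 0.15), a call lost without DMSO replicate 2 (0.0535) and without ABBV-744 replicate 1 (0.088). Of 12 Notch and Wnt genes 4 fell and 1 rose (no rise when any DMSO or ABBV-744 library was left out), including DKK1, a secreted Wnt inhibitor, at 5.52 and 4.59 against 2.77 and 2.60 FPKM (-0.71 ± 0.11). Both treated libraries were lower than both controls for each.

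Few ribosomal protein genes were called, and housekeeping genes were called about as often as all genes. Of 36 cytosolic ribosomal protein genes 2 rose and 1 fell (median -0.02), and of 25 housekeeping genes 4 rose (16%) and 1 fell (4%), with a median of 0.03, while the model of 24 libraries called no rise in either list. GAPDH, a glycolytic enzyme, read 6007 and 5734 against 6888 and 6661 FPKM and was not called (0.21 ± 0.07). Among 15 mitochondrially encoded and nuclear retained transcripts NEAT1 was the only call. COX6C stood apart from 24 nuclear genes of the respiratory chain, 4 of which fell and 1 of which rose (none in the model of 24 libraries). This subunit of cytochrome c oxidase read 338 and 350 FPKM with DMSO and 189 and 158 with ABBV-744 (-0.99 ± 0.08, limma, adjusted p = 0.00035 and 0.06 in the model of 24 libraries). TUBB3, the neuronal beta-tubulin, read 154 and 141 against 235 and 245 FPKM (0.70 ± 0.07, and 0.332 in that model), while KRT18 stayed at 363 and 377 against 370 and 372 FPKM.

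Of 12 S100 and annexin genes 5 fell (41.7%, against 13.1% of all genes) and none rose (2 falls in the model of 24 libraries), with S100A2 far below the rest. Of 16 fatty acid and lipid genes 1 rose and 3 fell, of 20 glycolysis and hypoxia genes 2 rose and 2 fell, of 9 G1 cyclins and kinases 1 fell, and of 6 neuronal genes 2 rose (33.3%). None of the 2 epithelial and 2 leucocyte genes tested was called, and no fibroblast or endothelial gene passed the filter on level. Shares close to the 9.15% of rises and 13.1% of falls among all genes, as in the integrin or glycolysis lists, do not set a list apart.

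**Figure D3:**
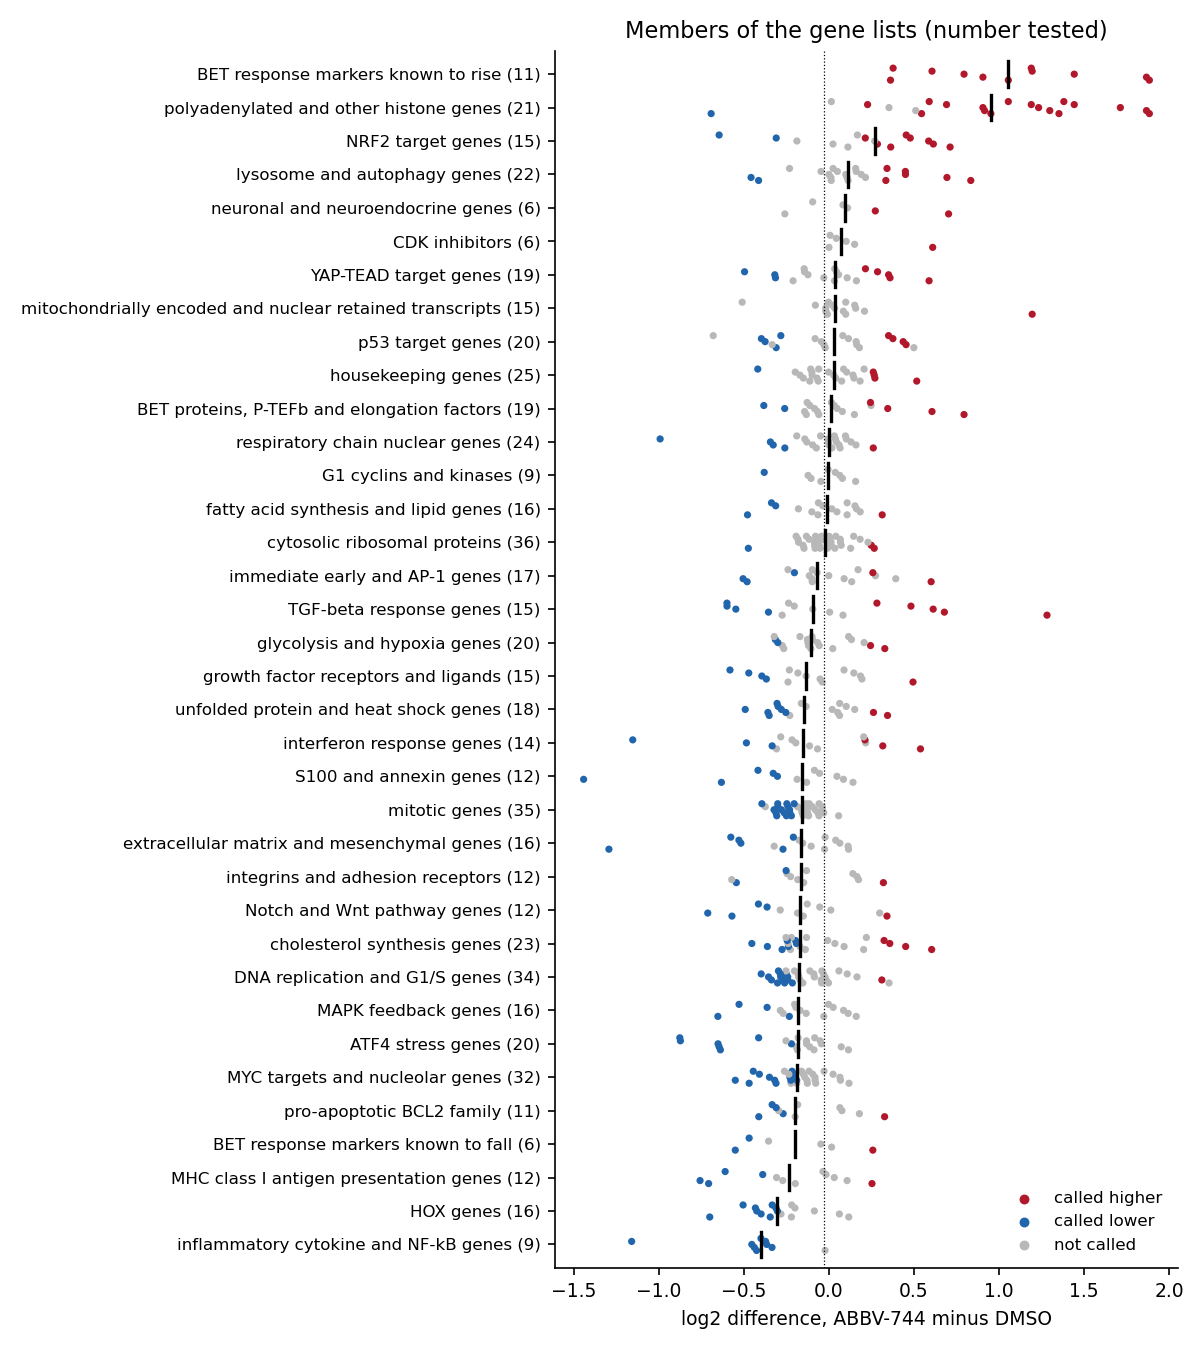
Each point is a tested member of a list, placed by its log2 difference of ABBV-744 minus DMSO, red where called higher, blue where called lower and grey where not called, with a black bar at the list median and a dotted line at the median of all genes, -0.03. The BET response markers known to rise (median 1.05) and the histone genes (median 0.95) lie furthest right and the cytokine and NF-kB genes (median -0.40) furthest left.

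ABBV-075 at 100 nM was measured in the same line against the same DMSO libraries. The doses of the compounds differ and the controls are shared, so the values are given side by side without a test between them. With ABBV-075, 8640 genes were called (69.1%), 3761 higher (30.1%) and 4879 lower (39%). At least 2-fold changes numbered 456 up (3.65%) and 982 down (7.86%). HIST1H2BD read 222 and 239 FPKM with ABBV-075, HIST1H2AC 201 and 208 FPKM, and BRD2 407 and 392 FPKM, each further from DMSO than with ABBV-744. Differences from DMSO with ABBV-075 were 4.65 for HIST1H2BD, 1.69 for BRD2, 1.93 for HEXIM1 and -2.21 for TM4SF1. All 35 mitotic and 34 replication genes fell with ABBV-075, with medians of -1.57 and -1.39, where the ABBV-744 medians were -0.16 and -0.17.

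FOSL1 lay on opposite sides of DMSO with the 2 compounds, a difference that was not tested. It read 52.3 and 55.5 FPKM with ABBV-075, below DMSO by 2.15 on the log2 scale (log2 -2.15), and was slightly above DMSO with ABBV-744. NFKBIA read 39.2 and 39.5 FPKM (1.19) and KRT18 899 and 937 FPKM (1.31) with ABBV-075, genes that were not called with ABBV-744. MYC read 78.8 and 87.6 FPKM with ABBV-075 (-0.31 ± 0.07). THBS1 stood at 5.84 and 6.21 FPKM with ABBV-075 (-1.02) and at 4.55 and 5.06 with ABBV-744 (-1.29), and FOSL2 at -0.39 and -0.50 in the same order.

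**Figure D4:**
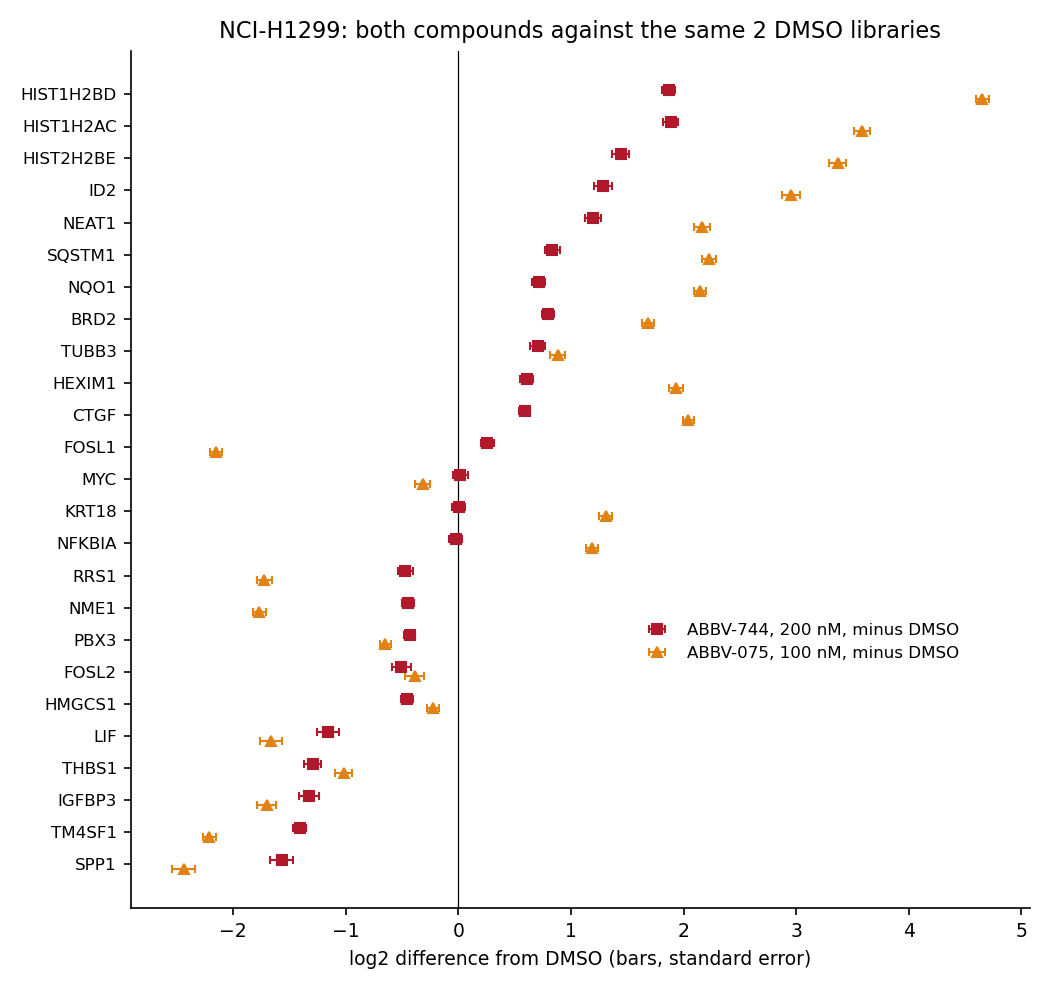
Log2 difference from DMSO (x axis) of 25 named genes in NCI-H1299 with ABBV-744 at 200 nM (red squares) and ABBV-075 at 100 nM (orange triangles), both against the same 2 DMSO libraries, with bars for the standard error. HIST1H2BD lies at 1.87 and 4.65, FOSL1 at 0.26 and -2.15, and THBS1 at -1.29 and -1.02.

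The ABBV-744 response of NCI-H1299 was set against the mean response of the 3 leukaemia lines in an interaction term over the 9838 genes expressed in all 4 lines. The term was called for 52 genes (0.529%), 26 with a higher response in NCI-H1299 (0.264%) and 26 with a lower one (0.264%). The count depends on single libraries. It fell to between 5 and 14 without any 1 DMSO or ABBV-744 library of NCI-H1299, and rose to 650 and 353 without SKM-1 DMSO replicate 1 or 2. GLIPR1, CASP4 and LOC93622 lost the call in none of the alternative settings that tested them. CASP4, an inflammatory caspase, fell in NCI-H1299 from 19.7 and 17.3 to 8.63 and 8.32 FPKM (-1.04 ± 0.08) and stood at 0.35, 0.12 and 0.37 in SKM-1, MV-4-11 and Kasumi-1 in turn, a difference between lines of -1.32. GLIPR1 stood at 0.91, -0.14 and -0.06 in the same lines (-1.72). LOC93622 rose from 18.5 and 18.6 to 38.5 and 35.8 FPKM (0.96 ± 0.06) and stood at -0.22, -0.16 and 0.23 in the leukaemia lines (1.01).

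Other genes of the lists also departed from the leukaemia mean. FOSL1 stood at -0.90, -0.70 and -1.05 in SKM-1, MV-4-11, then Kasumi-1 and at 0.26 in NCI-H1299, a difference of 1.14 ± 0.17. TP53INP1 stood at 1.49, 1.34 and 1.46 in the leukaemia lines and at 0.45 in NCI-H1299 (-0.98). SCD stood at -1.12, 0.14 and -1.46, so that MV-4-11 was nearer to NCI-H1299 (0.11) than to the other leukaemia lines. HIST2H2BE stood above DMSO in each line, at 2.67, 1.61 and 1.90 against 1.44 in NCI-H1299 (-0.62). BCL2 stood at -1.62, -1.05 and -0.66 against -0.36 (0.75), although it was near 1 FPKM in NCI-H1299. For MYC the term was 0.78 ± 0.20 and was not called (limma, adjusted p = 0.0937), with the leukaemia lines at -0.85, -0.44 and -1.02.

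**Figure D5:**
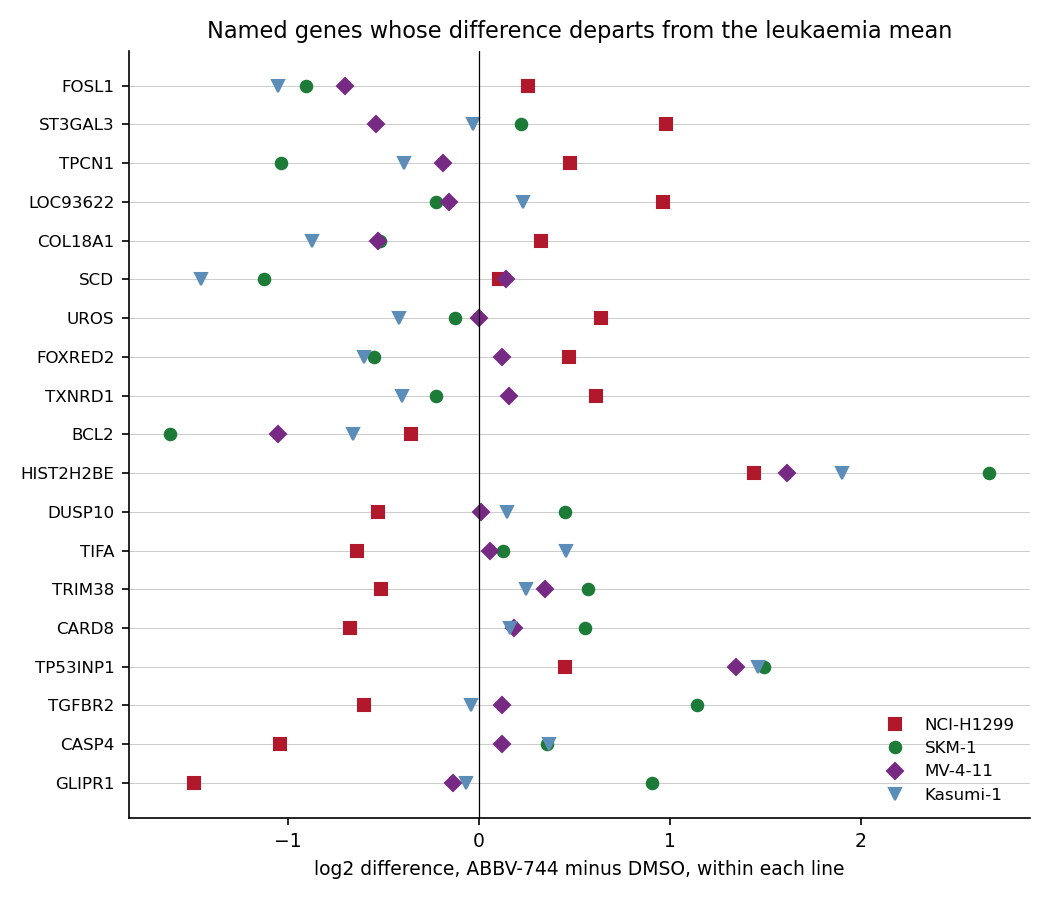
Log2 difference of ABBV-744 minus DMSO within each line (x axis) for 19 named genes called in the interaction term, with NCI-H1299 as red squares, SKM-1 as green circles, MV-4-11 as purple diamonds and Kasumi-1 as blue triangles. CASP4 and GLIPR1 have the red square furthest left of the other lines (-1.04 and -1.49), and FOSL1 has it furthest right of them (0.26 against -0.70 to -1.05).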

How the data were processed

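Poly-A RNA was sequenced in 24 libraries of 4 cell lines, and the authors deposited 1 table of FPKM values for them. The submitters' processing notes name DESeq2 without a version. Any aligner, quantifier, build or annotation is not given in the sources used here. FPKM is not a count, so no count model was used and depth is unknown. Of all values, 0.215% lay above 0 and below 0.0001, so whole reads could not be recovered.

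Values were analysed as log2(FPKM + 1), with a pseudocount of 1. Genes with at least 1 FPKM in 2 of the 4 libraries compared were tested, 12498 in all, of which 11704 matched a gene symbol. A model with 3 group means was fitted to the 6 NCI-H1299 libraries in R 4.3.3 with limma 3.58.1 (eBayes with trend and robust, statmod 1.5.0), with 3 residual degrees of freedom. All tests were two-sided. The Benjamini-Hochberg adjustment ran over all tested genes, and calls needed an adjusted p under 0.05. Intervals are at 95%. The exact permutation test of 1 gene with 2 libraries against 2 has p = 0.333 as its lowest value, so every call depends on spread shared across genes and groups. In data simulated with the spread of these libraries, 200 genes were changed, all with a mean log2 value above 2. The model recovered 46% of log2 changes of 0.5, 95% of 1 and 99% of 2. Of its calls 5.15%, 6.86% and 2.46% were false in turn. The interaction term came from a model of 12 groups and 24 libraries.

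The 40 gene lists hold 771 genes, of which 770 were found (755 by symbol, 13 by Ensembl identifier and 2 by an older symbol) and 613 tested. No set test was run. The rule for named genes took the 12 largest rises and falls with a symbol, 5 FPKM in the higher group and no overlap, up to 3 called and 1 uncalled gene per list, 8 and 8 interaction genes, and MYC, HEXIM1, SERPINI1, BRD2, BRD3, BCL2, BCL2L1, MCL1, BCL2L11, CDK6 and CDKN1A. Fewer are printed, and 1 gene that the rule allowed is not reported here. Members, lists and the rule were chosen with earlier results of these data known. Alternatives were another pseudocount (0.1), no filter or 5 FPKM, other scalings, other models and leaving out each library of the groups compared. Promoters are from RefSeq on GRCh38.p14. Python 3.11.15, numpy 2.4.6 and matplotlib 3.10.9 were used.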

Additional observations from a re-analysis of the deposited data

Results flagged for a closer look

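A total of 19 named genes had an ABBV-744 response in NCI-H1299 that differed from the mean response of SKM-1, MV-4-11 and Kasumi-1 in the interaction term (limma, adjusted p under 0.05), in log2 units of NCI-H1299 minus the leukaemia mean. Higher responses in NCI-H1299 were those of FOSL1 (1.14), the sialyltransferase ST3GAL3 (1.09), the endolysosomal channel TPCN1 (1.02), LOC93622 (1.01), the collagen COL18A1 (0.97), SCD (0.92), the haem synthesis enzyme UROS (0.82), FOXRED2 (0.82), TXNRD1 (0.77) and BCL2 (0.75). Lower responses were those of GLIPR1 (-1.72), CASP4 (-1.32), TGFBR2 (-1.01), the inflammasome regulator CARD8 (-0.98), TP53INP1 (-0.98), TRIM38 (-0.90), the NF-kB adaptor TIFA (-0.85), DUSP10 (-0.73) and HIST2H2BE (-0.62). ST3GAL3 rose in NCI-H1299 from 3.16 and 2.41 to 6.80 and 6.05 FPKM, and CARD8 fell from 17.9 and 20.3 to 10.9 and 12.3 FPKM. UROS rose from 20.7 and 21.9 to 34.1 and 33.6 FPKM, and TIFA fell from 6.04 and 5.97 to 3.54 and 3.48 FPKM. All 19 kept their direction in the 22 alternative settings in which they were tested. The call was lost in 14 of 22 settings for TPCN1 and in 11 each for HIST2H2BE and TIFA.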

How the results depend on the processing

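No paired analysis was possible because replicate numbers were given in accession order and link no library of one treatment to a library of another. With 2 libraries per group and no counts, both the spread per gene and the depth are poorly known, and small changes are the most affected. The model of all 24 libraries called 710 genes with ABBV-744, 181 higher and 529 lower, and 2443 higher with ABBV-075. Scaling moved the split of the calls. Quantile normalization gave 1517 higher and 1403 lower (52% higher, against 41.1% as deposited) and median-ratio scaling 1356 and 1444 (48.4%), while the median of all genes moved by less than 0.1. Without 1 library the ABBV-744 calls ran from 1247 to 2650, with 469 to 1093 higher and 735 to 1558 lower. The 125 named called genes kept their direction in every alternative that tested them, and 61 (model of 24 libraries) to 123 kept the call. Not called and near 0, MYC ran from -0.035 to 0.066 and KRT18 from -0.026 to 0.032 without 1 library. Median-ratio scaling called GAPDH higher (adjusted p = 0.0464), and quantile normalization called CCNG1 (0.0333) and ITGB1 (0.0182) higher.

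The interaction term called 25 genes (15 higher, 10 lower) at 5 FPKM and 80 (51 higher) with median-ratio scaling. It called 136 with SKM-1 left out (86 higher, 50 lower) and 50 lower with Kasumi-1 left out. Without 1 DMSO or ABBV-744 library it ran from 5 to 650, with 2 to 261 higher and 2 to 389 lower. The cause of these differences was not tested.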
